A study of Homo sapiens with 12 samples.

Results

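The genes described are the nuclear-encoded subunits of the mitochondrial respiratory chain, chosen by name: loci whose whole gene name was an NDUFA, NDUFB, NDUFC, NDUFS or NDUFV number, SDHA to SDHD, a UQCR name or a COX4 to COX8 name, with an FPKM (fragments per kilobase of transcript, relative to the library's total) of at least 1 in at least 2 columns. The table lists 57908 loci, of which 87 matched the names and 38 passed the FPKM minimum, and these 38 are the members. They comprise 35 coding genes and 3 pseudogenes (COX6CP1, COX7BP2 and UQCRFS1P1). By the start of their names, 19 coding genes were counted to complex I, 2 to complex II, 6 to complex III and 8 to complex IV. NDUFA4 is among the 19 by its name, although its product is now placed in complex IV. A further 27 chain subunits, SDHC, SDHD, COX7C and COX8A among them, lie in loci that the table names with several genes at once, so the name rule does not reach them. They are given separately.

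The cells were HCT116, an established human colorectal carcinoma line, labelled wild type where the control is described. They were transfected with a control plasmid (GFP in the sample titles, a vector in the design text), NSE4A-flag (NSE4 cells) or SMC5-flag (SMC5 cells). NSE4A and SMC5 are subunits of the SMC5/6 complex, a chromosome-maintenance machine of the cohesin family. The study asked how raising these subunits bears on growth and on cell death under the drug. At 24 h after transfection each culture was split, and its portions received PBS or 1000 nM doxorubicin, a DNA-intercalating topoisomerase II poison, for 24 h. The labels do not tell whether both libraries of a group derive from different cultures, so each p-value covers just the spread among the samples at hand, possibly technical.

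The chain passes electrons from NADH (complex I) and succinate (complex II) through ubiquinone to complex III, then by cytochrome c to complex IV, which reduces oxygen to water. Complexes I, III and IV pump protons as they do so, and ATP synthase uses the gradient. Complex II is encoded in the nucleus alone, whereas the other complexes join nuclear subunits to a catalytic core that is partly encoded by the mitochondrial genome.

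Estimated depth was 13.46 to 19.47 M (1e6) fragments per library, from the FPKM step of 1 fragment in long transcripts. Both columns of doxorubicin-treated SMC5 cells were nearly the same library: their log2 values had an r of 0.9994, 1091 values above 0 were identical, and 7 loci were above 0 in only 1 column, against 0 identical values and 4216 to 5291 such loci in the other 5 pairs. Their mean was used as 1 sample, which left 11 samples. Of 9 epithelial markers 8 exceeded 1 FPKM in at least 1 library, with EPCAM at 120.3 to 146.3 FPKM, while the intestinal stem cell marker LGR5 stayed at or below 0.634 FPKM. Summed markers of other cell types had overlapping ranges in PBS and doxorubicin libraries: fibroblast 18.0 to 25.6 against 16.1 to 27.9 FPKM, nearly all COL1A1, and leukocyte, without the locus that CD14 shares with NDUFA2, 0.346 to 1.68 against 0.81 to 1.24 FPKM. Their part in the results was not tested.

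Summed over their coding members, complexes III and IV had lower nuclear-encoded mRNA with doxorubicin, whereas the sums of complexes I and II overlapped. Subunits in loci with several names, such as SDHC, SDHD, UQCRQ, COX7C and COX8A, are not in these sums. The summed FPKM of the 6 complex III members ran from 1192 to 1343 in the 6 PBS libraries and from 934 to 1040 with doxorubicin. For the 8 complex IV members the sums were 2216 to 2491 and 1848 to 2039, again without overlap. Those of complex I were 2599 to 3133 and 2538 to 2798, and those of complex II 121.9 to 141.5 and 124.6 to 140.2. These sums are dominated by a few abundant subunits and carry no test.

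All 35 coding members together summed to 6195 to 7108 FPKM with PBS and 5474 to 6017 FPKM with doxorubicin. As a share of the FPKM outside the mitochondrial genome they were nearly level, at 0.896% to 0.948% and 0.906% to 0.973%. This total joins complexes III and IV, whose sums were lower with doxorubicin, with complexes I and II, whose sums overlapped. Shares by complex were not computed, so the level total does not mean that each complex was level. The summed FPKM outside the mitochondrial genome was itself lower with doxorubicin, 589737 to 664225 against 676952 to 749826, and mitochondrial loci took 34.9% to 45.6% of all FPKM against 28.9% to 46.2%. The summed FPKM of mitochondrial rRNA was 11394 to 16217 with doxorubicin and 5528 to 7073 with PBS. Libraries also differed by replicate number: in all 6 groups replicate 2 had the higher sum of coding members. Replicate 1 had the higher mitochondrial share and rRNA sum in all 6. These groups include the near-identical SMC5 doxorubicin columns, counted as 1 sample, whose sums of coding members were 5474 and 5986 FPKM. The reason was not tested. Within replicate 1 the coding members summed to 6195 to 6507 FPKM with PBS and 5474 to 5823 FPKM with doxorubicin, and within replicate 2 to 6734 to 7108 and 5905 to 6017 FPKM. FPKM is relative to the library, and in bulk samples fewer cells with a transcript and less of it per cell cannot be told apart.

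**Figure D1:**
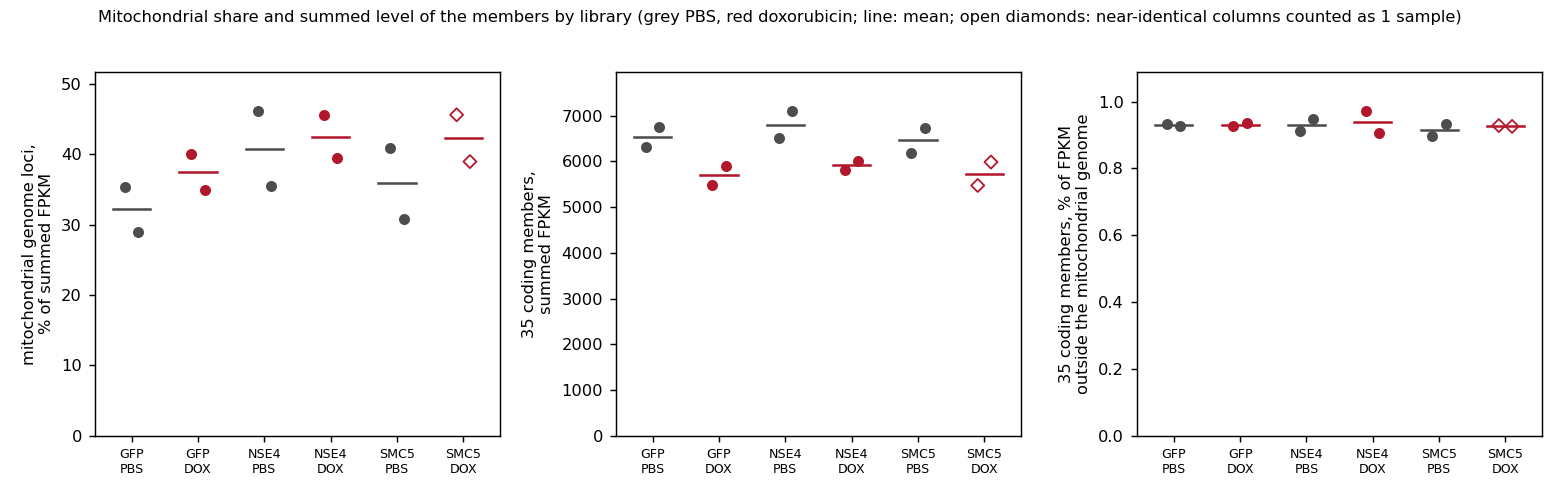
Each point is 1 library: the share of summed FPKM from mitochondrial genome loci (left, percent), the summed FPKM of the 35 coding members (centre) and those members as a percent of FPKM outside the mitochondrial genome (right); lines are group means and open diamonds are the near-identical columns counted as 1 sample. In the centre all doxorubicin libraries (5474 to 6017) lie below all PBS libraries (6195 to 7108), while on the right the ranges overlap (0.896% to 0.948% and 0.906% to 0.973%).

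With FPKM as deposited, doxorubicin changed a minority of the members, mostly downward and by less than a factor of 2. With limma on log2(FPKM + 1) over 15833 loci and Benjamini-Hochberg adjusted p at a threshold of 0.05, 10 of 38 members fell and 1 rose in GFP cells (26.3% and 2.63%), where 14.1% of all loci tested fell and 17.0% rose. In NSE4 cells 10 fell and 1 rose, against 13.9% and 16.3% of all loci. In SMC5 cells, with 1 doxorubicin sample, 6 fell (15.8%) and 1 rose, against 9.87% and 11.0%. The median log2 change of the members was -0.07 in GFP, -0.12 in NSE4 and -0.03 in SMC5 cells, beside 0.02, 0.03 and 0.02 over all loci. When FPKM was rescaled to the same sum outside the mitochondrial genome, 7 members rose and 6 fell in GFP and in NSE4 cells, and 5 rose and 4 fell in SMC5 cells. Under that scaling 28.7%, 29.6% and 21.2% of all loci rose in GFP, NSE4 and SMC5 cells, and 9.58%, 9.07% and 6.99% fell. Without any 1 library, 4 to 12 members passed in GFP, 4 to 11 in NSE4 and 2 to 8 in SMC5 cells. The median SE was 0.12 for the members and 0.17 for all loci in GFP cells. Among the 9911 loci with a mean of at least 5 FPKM, 19.0% fell and 19.7% rose in GFP cells.

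The same 6 members fell in all 3 backgrounds: NDUFB4 and NDUFS4 of complex I, SDHB of complex II, UQCRH of complex III, and COX4I1 and COX7A2L of complex IV. NDUFA10, UQCRB and COX6C were among the 4 that passed in GFP and NSE4 cells and not in SMC5 cells. The single member that rose as deposited, NDUFA6, rose in all 3. Under adjustment for GC content and transcript length 5, 3 and 3 members rose, where 18.8%, 18.2% and 13.6% of all loci did. The remaining 27 passed in none, and no member rose in one background and fell in another. The shares of all loci that fell, rose or passed in none across the backgrounds were not counted. Calls shared by the backgrounds are therefore not shown to be particular to the members. Each background has its own PBS libraries, so these 3 contrasts share no samples, but they share 1 estimate of the spread. When only the compared groups entered the fit, 6 members passed in GFP cells, 4 in NSE4 cells and 0 in SMC5 cells, so the SMC5 calls rest on the spread estimated from the other groups.

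**Figure D2:**
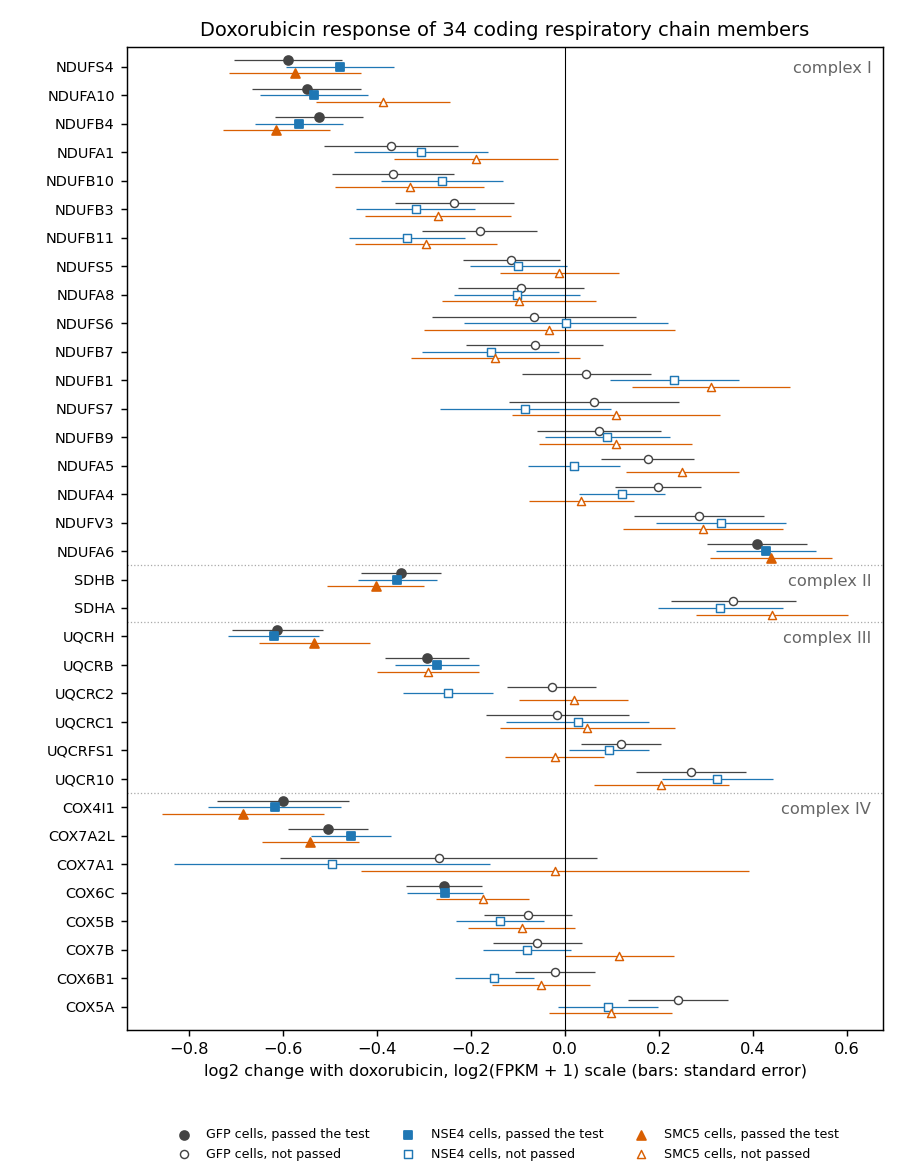
Log2 change with doxorubicin on the log2(FPKM + 1) scale (x axis; bars are standard errors) for 34 of the 35 coding members, ordered by complex and by their change in GFP cells; filled symbols passed the test. UQCRH (-0.61), COX4I1 (-0.60) and NDUFS4 (-0.59) lie farthest left in GFP cells and NDUFA6 (0.41) farthest right.

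In complex I, 4 subunits fell in GFP cells and 1 rose, of 19 counted to it by name. NDUFB4, an accessory subunit of the membrane arm, was at 230 and 215 FPKM in GFP cells with PBS and at 167 and 143 FPKM with doxorubicin. In NSE4 cells it was at 238 and 226 FPKM, then 158 and 155 FPKM, and in SMC5 cells at 226 and 227 FPKM, then 150 and 145 FPKM in the columns counted as 1 sample. Every doxorubicin library lay below every PBS library. Members named for their change had to show no overlap within a background, so such separation, here and below, is no added evidence. Its share among all loci was not counted. NDUFB4 fell by 0.52 on the log2 scale in GFP cells (SE 0.09, adjusted p = 0.00419), by 0.57 in NSE4 cells (SE 0.09, adjusted p = 0.00307) and by 0.61 in SMC5 cells (SE 0.11, adjusted p = 0.0081).

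NDUFS4, an accessory subunit of the NADH-oxidising module, is one of the subunits mutated in inherited complex I deficiency. It was at 101 and 103 FPKM in GFP cells with PBS and at 60.9 and 74.2 FPKM with doxorubicin. NSE4 cells had 109 and 117 FPKM, then 77.1 and 84.4 FPKM, and SMC5 cells 108 and 120 FPKM, then 74.2 and 78.2 FPKM. Here too all libraries separated by treatment. NDUFS4 fell by 0.59 on the log2 scale in GFP cells (SE 0.11, adjusted p = 0.00635), a call kept without any 1 library. In NSE4 cells it fell by 0.48 (SE 0.11, adjusted p = 0.0156), and in SMC5 cells by 0.57 (SE 0.14, adjusted p = 0.024). The NSE4 call was lost without PBS replicate 2 (adjusted p = 0.0719) or doxorubicin replicate 1 (adjusted p = 0.0894), and the SMC5 call without PBS replicate 2 (adjusted p = 0.0939).

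NDUFA10, an accessory subunit of the membrane arm that resembles nucleoside kinases, was at 78.7 and 93.3 FPKM with PBS in GFP cells and at 56.2 and 60.3 FPKM with doxorubicin. It fell by 0.55 on the log2 scale there (SE 0.12, adjusted p = 0.00891) and by 0.53 in NSE4 cells (SE 0.12, adjusted p = 0.0104). In SMC5 cells the change was -0.39 (SE 0.14, adjusted p = 0.0893). The GFP call was lost without PBS replicate 2 (adjusted p = 0.0622), and the NSE4 call without PBS replicate 2 (adjusted p = 0.056) or doxorubicin replicate 1 (adjusted p = 0.0615).

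NDUFA6, an accessory subunit of the LYR-motif family on the peripheral arm, moved the other way. It was at 70.5 and 66.5 FPKM with PBS in GFP cells and at 85.0 and 98.0 FPKM with doxorubicin. NSE4 cells had 61.7 and 71.0 FPKM, then 87.3 and 91.5 FPKM, and SMC5 cells 63.9 and 65.7 FPKM, then 87.0 and 89.5 FPKM. All doxorubicin libraries exceeded all PBS libraries. NDUFA6 rose by 0.41 on the log2 scale in GFP cells (SE 0.11, adjusted p = 0.0207), by 0.43 in NSE4 cells (SE 0.11, adjusted p = 0.0177) and by 0.44 in SMC5 cells (SE 0.13, adjusted p = 0.0459).

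Those NDUFA6 calls were close to the threshold. In GFP cells the call was lost without PBS replicate 1 (adjusted p = 0.0606), PBS replicate 2 (0.106) or doxorubicin replicate 2 (0.114). In NSE4 cells it was lost without PBS replicate 1 (0.0947), doxorubicin replicate 1 (0.0565) or doxorubicin replicate 2 (0.0867). In SMC5 cells it was lost without PBS replicate 1 (0.139), PBS replicate 2 (0.106) or doxorubicin column 2 (0.0542), and without either GFP PBS library (0.0666 and 0.0662) or either NSE4 doxorubicin library (0.0651 and 0.0646).

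Of the 19 members counted to complex I by name, NDUFA4 included, 14 passed in no background. They include the catalytic core subunit NDUFS7 and accessory subunits of both arms. Their log2 changes in GFP cells ran from -0.37 for NDUFA1 to 0.29 for NDUFV3. NDUFB1 and NDUFB9, at 368 to 619 and 396 to 512 FPKM, were among the most abundant of them.

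The 2 measured members of complex II had changes of opposite sign. SDHA, the flavoprotein that oxidises succinate, was at 56.7 and 64.0 FPKM with PBS in GFP cells and at 70.7 and 84.9 FPKM with doxorubicin. In NSE4 cells it was at 58.6 and 64.8 FPKM, then 72.9 and 82.9 FPKM, and in SMC5 cells at 53.3 and 62.1 FPKM, then 72.8 and 84.1 FPKM. All doxorubicin libraries were higher than all PBS libraries, yet the change did not pass the test as deposited: it was 0.36 in GFP cells (SE 0.13, adjusted p = 0.0731), 0.33 in NSE4 cells (SE 0.13, adjusted p = 0.0945) and 0.44 in SMC5 cells (SE 0.16, adjusted p = 0.0907).

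SDHB, the iron-sulfur subunit that hands electrons on towards ubiquinone, was at 68.3 and 72.6 FPKM with PBS and at 56.2 and 53.9 FPKM with doxorubicin in GFP cells. NSE4 cells had 73.8 and 76.7 FPKM, then 59.7 and 57.3 FPKM, and SMC5 cells 68.6 and 72.6 FPKM, then 51.7 and 54.6 FPKM. The treated libraries were all the lower ones. SDHB fell by 0.35 on the log2 scale in GFP cells (SE 0.08, adjusted p = 0.0158), by 0.36 in NSE4 cells (SE 0.08, adjusted p = 0.0147) and by 0.40 in SMC5 cells (SE 0.10, adjusted p = 0.0284). Its call was lost in GFP cells without PBS replicate 2 (adjusted p = 0.092) or doxorubicin replicate 2 (0.0731), in NSE4 cells without PBS replicate 2 (0.06) or doxorubicin replicate 2 (0.0751), and in SMC5 cells without PBS replicate 1 (0.0647) or PBS replicate 2 (0.102).

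Within a library SDHA stood at 0.777 to 0.882 of the SDHB level with PBS and at 1.22 to 1.57 with doxorubicin, a ratio that a scaling factor per library leaves as it is. The membrane anchors SDHC and SDHD, which hold the ubiquinone site, share their loci with other genes. The SDHC locus was at 86.6 to 106 FPKM with PBS and 72.3 to 87.5 FPKM with doxorubicin and passed in no background. The SDHD locus fell in NSE4 cells, by 0.35 on the log2 scale (SE 0.10, adjusted p = 0.0251), and had changes of -0.24 (adjusted p = 0.0957) in GFP and -0.35 (adjusted p = 0.0658) in SMC5 cells.

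In complex III the falls were in accessory subunits. UQCRH, the hinge protein at cytochrome c1, was the third most abundant member (mean 554 FPKM, a scale that is per transcript length). It was at 626 and 676 FPKM with PBS and at 415 and 435 FPKM with doxorubicin in GFP cells. NSE4 cells had 640 and 719 FPKM, then 423 and 459 FPKM, and SMC5 cells 598 and 667 FPKM, then 408 and 464 FPKM. No treated library reached an untreated one. UQCRH fell by 0.61 on the log2 scale in GFP cells (SE 0.10, adjusted p = 0.0025), by 0.62 in NSE4 cells (SE 0.10, adjusted p = 0.00243) and by 0.53 in SMC5 cells (SE 0.12, adjusted p = 0.0166). The SMC5 call alone depended on 1 library, PBS replicate 2 (adjusted p = 0.071 without it). The near-identical retrocopy UQCRHL was at 0.0796 to 0.194 FPKM with PBS and 0.39 to 0.513 FPKM with doxorubicin, below the minimum, and the division of reads common to both is not stated.

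UQCRB, the ubiquinone-binding accessory subunit, was at 260 and 271 FPKM with PBS and at 210 and 223 FPKM with doxorubicin in GFP cells. It fell by 0.29 on the log2 scale there (SE 0.09, adjusted p = 0.037) and by 0.27 in NSE4 cells (SE 0.09, adjusted p = 0.0493), with a change of -0.29 in SMC5 cells (SE 0.11, adjusted p = 0.0938). These calls sat at the threshold. The GFP call was lost without any 1 of the 4 GFP libraries (adjusted p = 0.0739 to 0.158) and without either NSE4 doxorubicin library (0.0538 and 0.0532). The NSE4 call was lost without any 1 of the 4 NSE4 libraries (0.0966 to 0.18) or the 4 GFP libraries (0.0586 to 0.0708).

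The catalytic Rieske protein UQCRFS1 and the core proteins UQCRC1 and UQCRC2, which face the matrix, did not pass in any background. UQCRC1 was at 113 to 139 FPKM with PBS and 110 to 146 FPKM with doxorubicin, and UQCRFS1 at 25.3 to 28.0 and 25.9 to 29.5 FPKM. Their ranges overlapped. The UQCRC1 to UQCRH ratio within a library was 0.177 to 0.211 with PBS and 0.264 to 0.333 with doxorubicin, a pair chosen after the changes were seen. UQCR10, a small accessory subunit, had all treated libraries (96.3 to 125 FPKM) above all untreated ones (87.9 to 95.8 FPKM) without passing the test, and is named after its values were seen. NDUFB3 (63.6 to 71.2 against 72.8 to 92.9 FPKM) and NDUFB11 (54.2 to 63.3 against 66.0 to 80.8 FPKM) of complex I separated downward without passing, and are likewise named afterwards. Of all members, 3 had every treated library above every untreated one and 12 below. The share of all loci was not counted.

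Complex IV held the most abundant members. COX4I1, the ubiquitous form of the regulatory subunit IV, had a mean of 630 FPKM. It was at 663 and 790 FPKM with PBS and at 441 and 517 FPKM with doxorubicin in GFP cells. NSE4 cells had 695 and 816 FPKM, then 449 and 536 FPKM, and SMC5 cells 729 and 812 FPKM, then 436 and 521 FPKM. Replicates of this gene were wide apart, but no library crossed between treatments. COX4I1 fell by 0.60 on the log2 scale in GFP cells (SE 0.14, adjusted p = 0.014), by 0.62 in NSE4 cells (SE 0.14, adjusted p = 0.0128) and by 0.69 in SMC5 cells (SE 0.17, adjusted p = 0.0267). The call was lost in GFP cells without PBS replicate 2 (adjusted p = 0.0907) or doxorubicin replicate 1 (0.0813), in NSE4 cells without PBS replicate 2 (0.0709) or doxorubicin replicate 1 (0.083), and in SMC5 cells without PBS replicate 1 (0.0566) or PBS replicate 2 (0.1).

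COX7A2L, which takes part in joining complexes III and IV into supercomplexes, was at 74.9 and 77.8 FPKM with PBS and at 55.0 and 52.0 FPKM with doxorubicin in GFP cells. NSE4 cells had 77.5 and 80.9 FPKM, then 55.4 and 59.6 FPKM, and SMC5 cells 82.9 and 85.0 FPKM, then 54.6 and 60.1 FPKM. Treated and untreated libraries were separate in every background. COX7A2L fell by 0.50 on the log2 scale in GFP cells (SE 0.08, adjusted p = 0.0033), by 0.46 in NSE4 cells (SE 0.08, adjusted p = 0.00531) and by 0.54 in SMC5 cells (SE 0.10, adjusted p = 0.00908). It kept its call without any 1 library in all 3 backgrounds.

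COX6C, a small accessory subunit with the highest mean of all members (690 FPKM), was at 714 and 719 FPKM with PBS and at 609 and 590 FPKM with doxorubicin in GFP cells. It fell by 0.26 on the log2 scale in GFP cells (SE 0.08, adjusted p = 0.0428) and by 0.25 in NSE4 cells (SE 0.08, adjusted p = 0.0452), with -0.17 in SMC5 cells (SE 0.10, adjusted p = 0.251). The GFP call was lost without any 1 of the 4 GFP libraries (adjusted p = 0.0914 to 0.15), either NSE4 doxorubicin library (0.0585 and 0.0577) or either SMC5 PBS library (0.0638 and 0.0636). The NSE4 call was lost without any 1 NSE4 library other than PBS replicate 2 (0.0851 to 0.2), any 1 GFP library (0.0577 to 0.0675) or either SMC5 PBS library (0.067 and 0.0668).

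**Figure D3:**
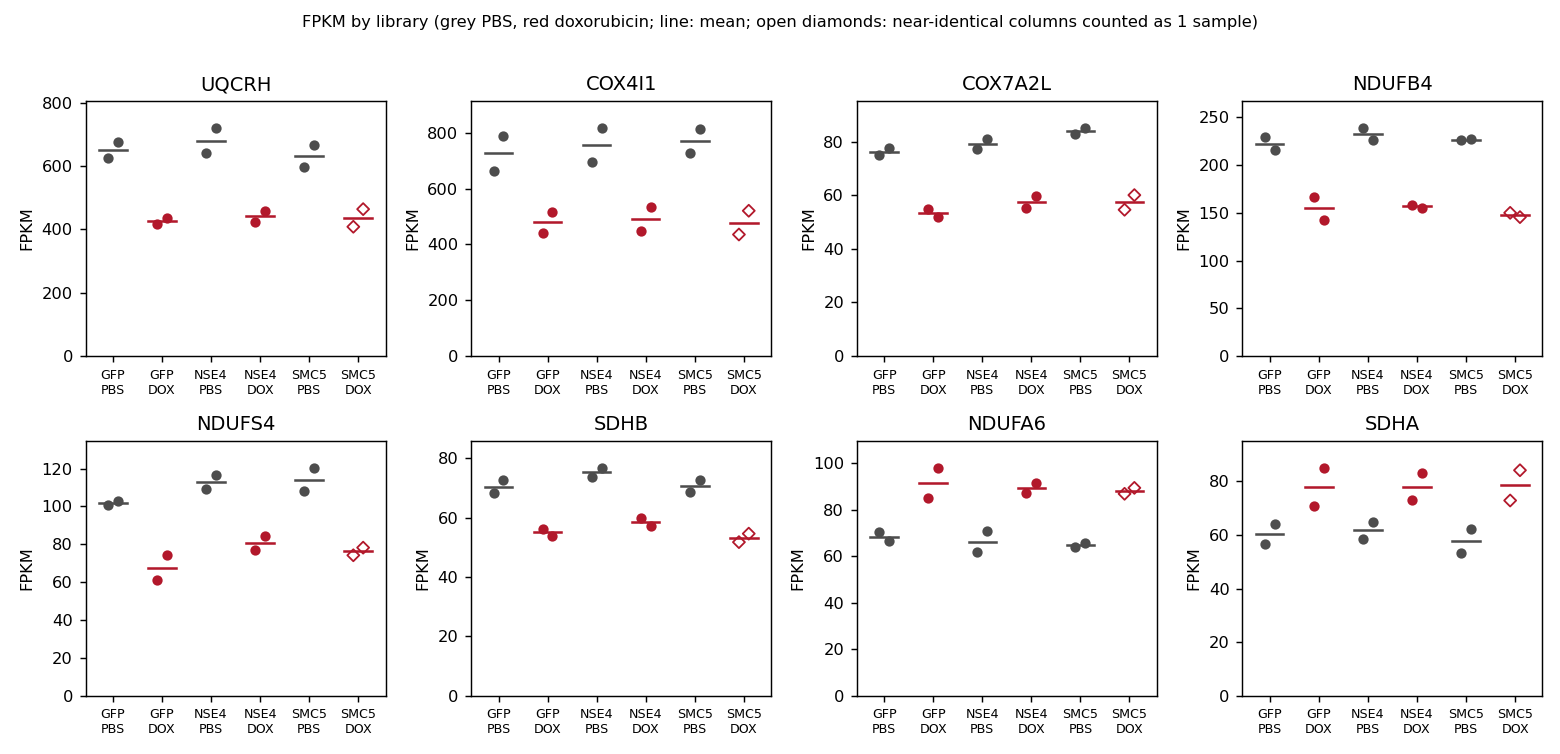
FPKM (y axis, from 0) of 8 members in each library by group; lines are group means, and open diamonds are the near-identical columns counted as 1 sample. UQCRH runs from 598 to 719 with PBS and from 408 to 464 with doxorubicin, whereas NDUFA6 and SDHA are higher with doxorubicin in every library.

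The other complex IV members passed in no background. COX5A and COX5B sit on the matrix side. In GFP cells COX5A had 0.24 (SE 0.11, adjusted p = 0.122), and COX5B had -0.08 (SE 0.09, adjusted p = 0.56). COX6B1, on the intermembrane side, had -0.02 (SE 0.08, adjusted p = 0.889), and COX7B had -0.06 (SE 0.09, adjusted p = 0.678). The COX5A to COX4I1 ratio within a library was 0.194 to 0.240 with PBS and 0.307 to 0.403 with doxorubicin.

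Tissue isoforms of complex IV were near 0 beside the ubiquitous forms. COX4I2, the lung isoform of subunit IV, was at or below 0.711 FPKM, against at least 436 FPKM for COX4I1. The heart and muscle isoform COX6A2 was at most 0.53 FPKM, while the locus holding the ubiquitous COX6A1 was at 625 to 755 FPKM. The muscle isoform COX7A1 was the lowest member, with a mean of 0.655 FPKM and a range of 0.165 to 1.32 FPKM, and passed no test, while the locus that COX7A2 shares with TMEM30A was at 309 to 378 FPKM. The testis isoforms COX7B2, COX8C and COX6B2 were at most 0.228 FPKM, at most 1.06 FPKM and, in a locus with other genes, at 1.37 to 3.09 FPKM, against 42.0 to 51.9 FPKM for COX7B and 797 to 1061 FPKM for the COX8A locus.

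**Figure D4:**
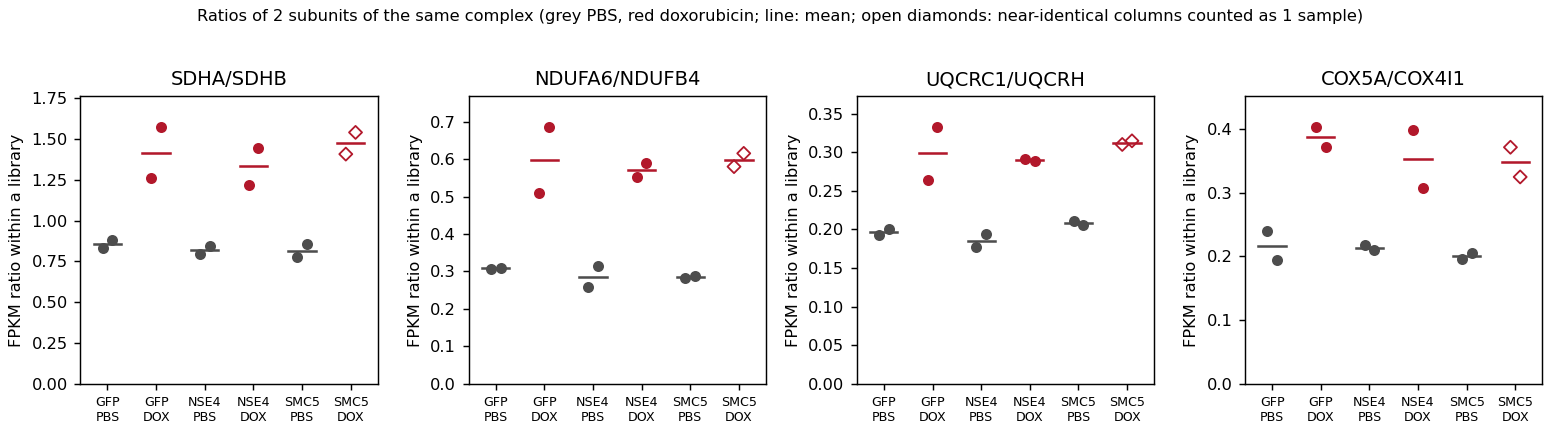
Ratio of the FPKM of 2 subunits of the same complex within each library (y axis, from 0); lines are group means and open diamonds are the near-identical columns counted as 1 sample. The pairs were chosen after the changes were seen, so the separation, such as 0.777 to 0.882 against 1.22 to 1.57 for SDHA over SDHB, is a description with no test.

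To show the regions upstream of the members that changed with the smallest p, the 250 bases before the RefSeq start (GRCh38.p14) are printed 5′ to 3′ on the gene's strand for the falling UQCRH and COX7A2L and the rising NDUFA6. UQCRH lies at chr1:46303448-46303697 (plus strand), COX7A2L at chr2:42361218-42361467 (minus strand, the first listed of its entries) and NDUFA6 at chr22:42090773-42091022 (minus strand). Capitals mark matches to the 4 motifs searched below, of which only UQCRH has one.
UQCRH: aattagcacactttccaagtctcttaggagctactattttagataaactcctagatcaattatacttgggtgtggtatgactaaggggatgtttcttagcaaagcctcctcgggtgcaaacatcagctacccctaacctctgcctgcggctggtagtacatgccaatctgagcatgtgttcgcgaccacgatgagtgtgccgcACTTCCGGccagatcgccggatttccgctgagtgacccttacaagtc
COX7A2L: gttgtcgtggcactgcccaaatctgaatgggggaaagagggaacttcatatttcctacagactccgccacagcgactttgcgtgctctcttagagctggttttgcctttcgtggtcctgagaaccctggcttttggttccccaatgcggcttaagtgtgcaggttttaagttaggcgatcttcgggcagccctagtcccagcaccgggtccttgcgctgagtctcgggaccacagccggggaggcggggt
NDUFA6: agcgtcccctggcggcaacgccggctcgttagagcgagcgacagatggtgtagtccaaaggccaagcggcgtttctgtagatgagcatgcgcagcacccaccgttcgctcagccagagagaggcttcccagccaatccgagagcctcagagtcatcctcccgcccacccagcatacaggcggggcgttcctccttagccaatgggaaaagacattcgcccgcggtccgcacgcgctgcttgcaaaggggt
RefSeq promoter entries matched 28 of the 35 coding members. COX6C, COX7A1, NDUFA4, NDUFB9, NDUFS5 and UQCRB were among those with none. The motifs were searched as exact letters on both strands: GCGCATGCG for NRF1, CCGGAAGT for the ETS family that includes GABPA, AAGATGGCG for YY1 and GGGGCGGGG for SP1. NRF1 and GABPA are textbook activators of respiratory chain genes.

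In the UQCRH window the ETS letters lay on the opposite strand, 47 to 40 bases before the start. The ETS motif was in 2 of 28 member promoters, UQCRH and COX5B, and in 3.42% of all 35116 promoters of the same length. NRF1 letters were in 3 of 28 (NDUFB4, NDUFS6 and NDUFS7) and in 1.64% of all. SP1 letters were in 5 of 28 (COX5B, NDUFA10, NDUFB11, NDUFS6 and UQCRFS1) and in 15.1% of all, and YY1 letters in 0 of 28 and 0.652% of all. Among the 7 members with a promoter that fell in GFP cells, NRF1, ETS and SP1 letters occurred once each. Of the 20 that passed in neither direction, 2 held the NRF1, 1 the ETS and 4 the SP1 letters. A match is a description of letters, and the windows of COX7A2L and NDUFA6 hold none of these exact strings.

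Which members passed the test depended on how libraries were put on a common scale. With the scaling to the sum outside the mitochondrial genome, the median log2 change of all loci moved from 0.02 to 0.19 in GFP cells, from 0.03 to 0.21 in NSE4 cells and from 0.02 to 0.18 in SMC5 cells. Under it 28.7% of all loci rose and 9.58% fell in GFP cells, beside the 7 members that rose and 6 that fell. SDHA passed there in all 3 backgrounds, with 0.56, 0.54 and 0.63 on the log2 scale (adjusted p = 0.00198, 0.00228 and 0.00453), which is 0.37, 0.34 and 0.46 above the median of all loci.

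COX4I1, COX7A2L, NDUFS4 and UQCRH fell and NDUFA6 rose under all 4 scalings tried (as deposited, quantile, outside the mitochondrial genome, median) in all 3 backgrounds. NDUFA10 fell under all 4 in GFP and NSE4 cells, and NDUFB4 in NSE4 cells. SDHB lost its call under the scaling outside the mitochondrial genome in each background (adjusted p = 0.215, 0.239 and 0.187), as did UQCRB and COX6C in GFP cells (0.503 and 0.664) and NSE4 cells (0.692 and 0.772). NDUFB4 lost it in GFP cells (0.0655) and SMC5 cells (0.0667).

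**Figure D5:**
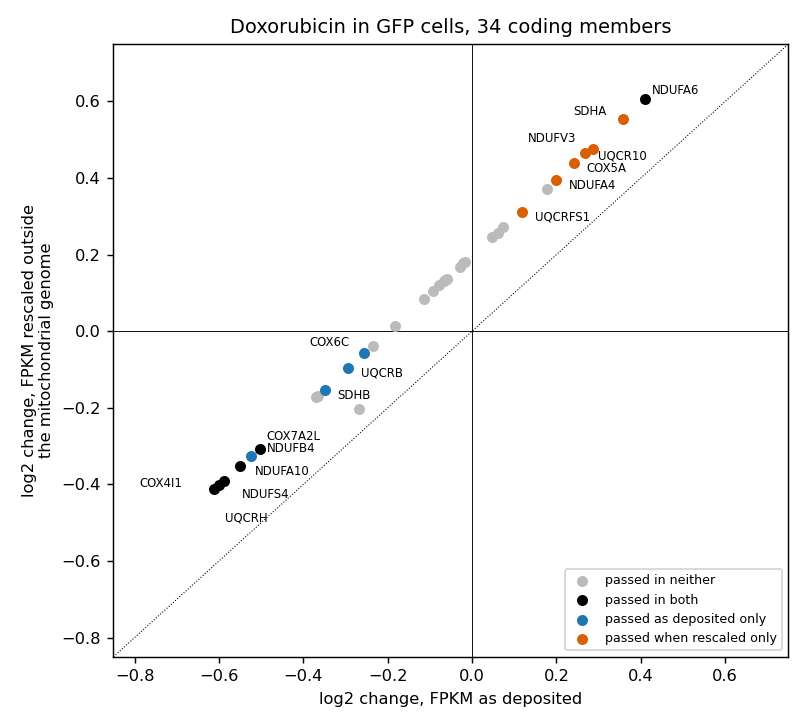
Log2 change of 34 of the 35 coding members with doxorubicin in GFP cells, with FPKM as deposited (x axis) and rescaled outside the mitochondrial genome (y axis); the dotted line is equality and colours show which passed the test under which scaling. All points lie above the line, in step with the shift of the median of all loci from 0.02 to 0.19, and NDUFA6, UQCRH, COX7A2L, COX4I1, NDUFS4 and NDUFA10 passed under both.

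No member passed the test in any plasmid comparison. Without doxorubicin, 0 of 38 members passed in NSE4 against GFP cells, where 0.0442% of all loci did, and 0 in SMC5 against GFP cells, where 0% did. With doxorubicin, 0 passed in NSE4 against GFP (0.0568% of all loci) and 0 in SMC5 against GFP cells (0.0316%). The difference between the doxorubicin responses, tested as an interaction in limma, passed for 0 members with NSE4 (0.0316% of all loci) and 0 with SMC5 (0.0189%). At an unadjusted p under 0.05 the count was also 0 of 38 in each of these 6 comparisons.

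None of the coding members' differences between backgrounds reached an unadjusted p under 0.05 in limma. NSE4 against GFP cells ran from -0.09 to 0.19 on the log2 scale without doxorubicin, with 30 of 35 higher in NSE4 cells, and from -0.11 to 0.26 with it. SMC5 against GFP cells ran from -0.27 to 0.16 and from -0.16 to 0.30. The interactions ran from -0.23 to 0.19 for NSE4 (median SE 0.16) and from -0.16 to 0.26 for SMC5 (median SE 0.18). The smallest unadjusted p was that of NDUFS4 in NSE4 against GFP cells with doxorubicin, at 0.0527 (0.26 on the log2 scale, SE 0.11), so differences of a size near these errors were not resolvable with 2 libraries a group. Where so few loci pass, the adjustment asks for a smaller p than in the doxorubicin contrasts. Differences well above these errors could therefore also have missed the adjusted threshold.

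Genes around the chain were read from lists chosen with earlier results of these data known, counted over loci with a single gene name unless shared loci are mentioned, and set beside the 14.1% of all loci that fell and 17.0% that rose in GFP cells. Among 9 ATP synthase subunits, given by the older names of the table, 6 fell (66.7%) and 0 rose in GFP cells with a median log2 change of -0.46, and 5 fell (55.6%) and 0 rose in each of the other backgrounds. ATP5G1, a source of the membrane ring subunit c, went from 215 and 240 FPKM to 110 and 126 FPKM in GFP cells. It fell by 0.94 on the log2 scale (SE 0.16, adjusted p = 0.00339). ATP5C1, the central stalk subunit, fell by 0.87 (SE 0.11, adjusted p = 0.00079) and ATP5I by 0.86 (SE 0.15, adjusted p = 0.00441), while ATPIF1, the inhibitor of the enzyme, rose by 0.84 (SE 0.17, adjusted p = 0.00749).

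Subunit c has further sources in ATP5G2 and ATP5G3, both in shared loci. The ATP5G2 locus, which also holds AC073594.1, was at 221 to 274 FPKM in all PBS libraries and at 56.1 to 73.1 FPKM in all doxorubicin libraries. It fell by 2.00 on the log2 scale in GFP (SE 0.14, adjusted p = 6.44e-05), 1.99 in NSE4 and 1.97 in SMC5 cells. No coding chain member changed as far. The ATP5G3 locus, shared with a Y_RNA, fell by 0.30 in GFP cells (SE 0.09, adjusted p = 0.0353) and had -0.21 in NSE4 (adjusted p = 0.112) and -0.24 in SMC5 cells (adjusted p = 0.165).

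Of the 27 chain subunits in loci with several names, 3 fell (11.1%) and 2 rose (7.41%) in GFP cells, 4 fell (14.8%) and 0 rose in NSE4 cells, and 2 fell (7.41%) and 0 rose in SMC5 cells, shares near or below those of all loci. COX7C, a small complex IV subunit whose locus also holds MIR3607, was at 887 to 988 FPKM with PBS and 538 to 578 FPKM with doxorubicin. It fell by 0.76 on the log2 scale in GFP (SE 0.07, adjusted p = 0.000232), 0.83 in NSE4 and 0.69 in SMC5 cells. The locus of NDUFV2, a core subunit of the NADH-oxidising module, fell by 0.57 in GFP (adjusted p = 0.00352), 0.68 in NSE4 (adjusted p = 0.0016) and 0.60 in SMC5 cells (adjusted p = 0.0107).

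Of 8 mitochondrially encoded mRNAs in single-name loci, 1 rose (12.5%, below the share of all loci in GFP and NSE4 cells) and 0 fell in each background, with median log2 changes of 0.37, 0.30 and 0.40. MT-ND1, a membrane core subunit of complex I, rose by 0.59 in GFP cells (SE 0.16, adjusted p = 0.0218) and by 0.49 in NSE4 cells (SE 0.16, adjusted p = 0.0451). In SMC5 cells it had 0.60 (SE 0.19, adjusted p = 0.0563), and the transcript that passed was MT-ND6, at 0.43 (SE 0.12, adjusted p = 0.0322), named after its value was seen. MT-ND1 levels were 2659 and 2109 FPKM with PBS and 3913 and 3258 FPKM with doxorubicin in GFP cells.

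Most assembly factors did not pass in GFP cells, which was also so for all loci. Of 15 for complex I, 2 rose (13.3%) and 0 fell in GFP cells, led by NDUFAF7, a mitochondrial methyltransferase, at 0.67 (SE 0.13, adjusted p = 0.00566), and NDUFAF1 at 0.55 (SE 0.13, adjusted p = 0.0152). Of 7 for complexes II and III, 1 rose (14.3%) and 0 fell: UQCC3, which aids the assembly of cytochrome b, at 0.94 (SE 0.15, adjusted p = 0.00271). Of 15 for complex IV, 2 rose (13.3%) and 3 fell (20%, above the 14.1% of all loci). HIGD2A had -0.81 (SE 0.10, adjusted p = 0.000766), TACO1, the translational activator of MT-CO1, 0.76 (SE 0.13, adjusted p = 0.00366) and COA6 0.57 (SE 0.13, adjusted p = 0.0116).

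Of 16 further genes (electron carriers, ubiquinone synthesis and chain subunits outside the name rule such as CYC1 and NDUFAB1), 2 rose and 2 fell in GFP cells (12.5% each, below the shares of all loci), with COQ10A, a ubiquinone-binding protein, at 1.49 (SE 0.17, adjusted p = 0.000596) and the ubiquinone hydroxylase COQ6 at 0.73 (SE 0.17, adjusted p = 0.0135). COQ10A was at 4.97 to 7.78 FPKM in PBS libraries and 14.6 to 20.1 FPKM with doxorubicin. Those that fell were the ubiquinone synthesis genes COQ5, at -0.38 (SE 0.12, adjusted p = 0.0407), and PDSS2, at -2.35 (SE 0.71, adjusted p = 0.0377), whose PBS libraries in GFP cells were far apart at 47.5 and 7.99 FPKM. Of 12 tricarboxylic acid cycle genes 3 rose and 3 fell in GFP cells (25.0% each), and of 4 pyruvate dehydrogenase genes 1 fell. The succinate-CoA ligase subunit SUCLG2 fell by 1.19 (SE 0.09, adjusted p = 9.34e-05) while its alternative SUCLA2 rose by 0.64 (SE 0.10, adjusted p = 0.0021), and DLAT of the pyruvate dehydrogenase complex fell by 0.85 (SE 0.14, adjusted p = 0.00285).

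Of 17 regulators of mitochondrial gene expression 2 rose and 2 fell in GFP cells (11.8% each, below the shares of all loci). TFB1M, which methylates the small mitochondrial rRNA, fell by 0.57 (SE 0.13, adjusted p = 0.0114), and the mitochondrial DNA polymerase POLG rose by 0.50 (SE 0.13, adjusted p = 0.0239). Of the activators, GABPA had 0.12 (SE 0.12, adjusted p = 0.49), TFAM 0.18 (SE 0.16, adjusted p = 0.433) and the locus NRF1 shares with RNA5SP244 -0.32 (SE 0.17, adjusted p = 0.2) in GFP cells. The nuclear receptor ESRRA, named after its values were seen, rose in NSE4 cells, by 0.79 (SE 0.22, adjusted p = 0.0266), and had 0.64 (adjusted p = 0.0552) in GFP and 0.71 (adjusted p = 0.0937) in SMC5 cells. The coactivator PPARGC1A was below the minimum, at no more than 0.0781 FPKM in any library.

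The 3 pseudogene members were low or erratic and passed no test. COX6CP1, a copy of COX6C, was at 0 in 5 libraries and between 12.7 and 47.4 FPKM in the others. COX7BP2 was at 6.70 FPKM in 1 GFP library with PBS, 8.12 FPKM in 1 NSE4 library with doxorubicin and 0 in the rest, and UQCRFS1P1 lay between 0.524 and 1.32 FPKM. Just inside the FPKM minimum of 2 columns were COX7A1 and COX7BP2, and just outside it, at 1 FPKM or more in a single column, were 6 loci, among them COX8C at 1.06 FPKM and UQCRHP2 at 1.51 FPKM. Of the 49 loci that matched the names but not the minimum, 44 were pseudogenes.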

How the data were processed

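The study sequenced mRNA from HCT116 cells as 12 libraries, 2 for each of 6 groups. The deposited table holds FPKM values for 57908 loci, made by the authors with TopHat and Cufflinks, per the submitters' processing notes. Versions, genome build and read assignment between copies of a gene are not given in the sources used here. All sample columns were used. 1 member is included in all counts and sums but is not reported by name or drawn one by one here.

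Members were taken by the name rule, and the 15833 loci that reached 1 FPKM in 2 or more samples were tested as log2(FPKM + 1) with limma 3.58.1 in R 4.3.3. All 6 groups entered 1 fit with an intensity trend and 5 residual degrees of freedom. P-values were Benjamini-Hochberg adjusted over all loci tested, at a threshold of 0.05, and "rose" and "fell" refer to it. The pseudocount of 1 shrinks changes of loci with low FPKM. The fit was tested on simulated data. Other steps used Python 3.11.15 with pandas 2.3.3. Depth was estimated from the FPKM step of 1 fragment in loci with 1 GENCODE 29 transcript of at least 1500 bases, which also gave GC content and length. Promoters and older gene names came from RefSeq tables.

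The members and all gene lists were chosen with earlier results of these data known. Named with values were up to 3 risers and 3 fallers of smallest p per complex and background without overlap of libraries, the SDH subunits, complex IV isoforms, the 3 highest and lowest members by mean, up to 3 of smallest p per list in GFP cells, and PPARGC1A, NRF1, GABPA and TFAM; others are said to be named after their values were seen. Alternatives were other scalings, a pseudocount of 0.1, other filters, a replicate block, the compared groups alone, 12 separate columns, adjustment for GC content and length, and leaving out each library.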

Additional observations from a re-analysis of the deposited data

How the results depend on the processing

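No member changed its call in the plasmid comparisons and interactions, which stayed at 0 under every alternative run. For doxorubicin the members called (11, 11 and 7 in GFP, NSE4 and SMC5 cells) became 6, 4 and 0 in fits of the compared groups alone, which leave fewer samples for the spread. Adjusted for GC content and transcript length they were 17 (5 rose, 12 fell), 16 (3 and 13) and 13 (3 and 10). There 18.8%, 18.2% and 13.6% of all loci rose in GFP, NSE4 and SMC5 cells, and 18.6%, 18.2% and 13.7% fell. With the replicate block added to that adjustment the members called were 17, 17 and 12. Median scaling gave 17 in NSE4 and 12 in SMC5 cells, and 12 columns as separate samples gave 11 in SMC5 cells. Shares of all loci are not given here for the compared groups alone, the replicate block, median scaling or 12 columns. Those counts therefore do not show whether the members or all loci moved. The cause of the differing counts was not tested. Without any 1 library the counts ran from 4 to 12 in GFP, from 4 to 11 in NSE4 and from 2 to 8 in SMC5 cells, lowest without GFP PBS replicate 2, NSE4 doxorubicin replicate 1 and SMC5 PBS replicate 2. In these fits a lone library is assumed to vary like the other groups.

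The labels do not say what a replicate number marks. Over loci, the deviations of same-numbered samples had a Pearson r of -0.04 to 0.07 and a Spearman rho of -0.01 to 0.19 (10 pairs of groups, 7 with rho above 0.1). Yet the libraries differed the same way by number in all 6 groups: replicate 2 had the higher sum of members. These groups include the near-identical SMC5 doxorubicin columns, counted as 1 sample. Whether the numbers pair samples is therefore not settled, and a block, a single shift by replicate number shared by all groups, was kept as an alternative. It does not pair the PBS and doxorubicin portions of a culture, and no such paired fit was run. With the replicate block 14, 15 and 11 members passed (2, 3 and 3 rose), again given without the shares of all loci. Of the 29 member calls, 29 held with the block, the pseudocount of 0.1, the median scaling, the mean FPKM of at least 5 and 12 columns. 21 held without the filter, 24 under quantile normalization and 19 when rescaled outside the mitochondrial genome. 1 call turned direction: COX6C in NSE4 cells had 0.052 under quantile normalization (adjusted p = 0.615). With 2 libraries a group and FPKM in place of counts, changes near 0.1 on the log2 scale could not be resolved. Larger changes could be missed too: SDHA, at 0.36 in GFP cells, did not pass as deposited.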

Other observations

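Some loci that matched the names but missed the FPKM minimum had a high value in a single library. COX6CP14, a copy of COX6C, was at 220.6 FPKM in replicate 1 of doxorubicin-treated GFP cells and listed at 0 in the other 11 columns. COX5BP6 was at 30.5 FPKM in PBS replicate 2 of SMC5 cells and COX6B1P5 at 6.30 FPKM in doxorubicin replicate 1 of NSE4 cells, each listed at 0 elsewhere. The locus that NDUFB5 shares with AC090425.1 was at 168 FPKM in PBS replicate 1 of GFP cells and at 56.8 to 90.8 FPKM in the others.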
